A study of Caenorhabditis elegans with 6 samples.

Results

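Autophagy genes of *Caenorhabditis elegans* and their regulator HLH-30, the TFEB homolog, were followed through 10 genes. These were lgg-1, lgg-2, sqst-1, bec-1, unc-51, atg-7, atg-9, atg-16.2, atg-18 and hlh-30. They were chosen by gene name, with earlier results of these data known. All 10 were found by WormBase identifier among the 31180 genes of the table, and all are protein-coding genes (PCGs). RNA came from whole animals of the wildtype N2 strain at the last larval stage (L4), fed on OP50 bacteria. Of 6 libraries, 3 were from animals kept at 20°C (CTRL) and 3 from animals heat shocked (HS) at 35°C for 4 h. The same wild-type genotype, stage and food applied to both groups, and each library held the RNA of all tissues.

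The value used for each gene is the authors' mean of the normalized read count over the 6 libraries, termed the level. It weights the 3 CTRL and 3 HS libraries alike, so that it is the level of neither condition alone. Values of single libraries were not analysed here and the fold changes and p-values of the authors' own comparison were not used, so no difference between HS and CTRL is given for any gene, and no spread between libraries stands beside a level. In whole animals, fewer cells of a type and less RNA per cell cannot be told apart in such a level.

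Autophagy is the process by which cytoplasm and organelles are enclosed in a double membrane, the autophagosome, and delivered to the lysosome for breakdown. A kinase complex starts the process, a lipid kinase marks the membrane, a transmembrane protein brings lipid to it, and a pair of ubiquitin-like conjugation systems fix Atg8 proteins to the growing membrane, where they also bind cargo receptors. HLH-30 is a basic helix-loop-helix transcription factor known in *C. elegans* for activating genes of autophagy and the lysosome, and it moves into the nucleus under starvation and heat.

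The 10 genes differed widely in level. Since longer genes collect more reads, levels were divided by exonic length before genes were compared, as normalized reads per kb of annotated exon, and a value that was not divided is named as such. On that scale the highest was lgg-1 at 8262 per kb and the lowest was unc-51 at 91.1 per kb, a ratio of 90.7. The same ratio was 154 by coding length and 22.2 without division by length. The median of the 10 genes was 507 per kb, against 97.3 per kb for the 18768 PCGs of the table. Of the 10 genes, 9 were above that PCG median and unc-51 was close to it at 0.936 times its value, whereas all 10 were above the PCG median of 122 normalized counts without division by length. Per kb, 6 of them were higher than at least 75% of PCGs, that is above 406 per kb. lgg-1 accounted for 61.0% of the per-kb level summed over the 10 genes, whereas hlh-30 accounted for 0.999%. Without division by length these shares were 35.7% and 2.70%.

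**Figure D1:**
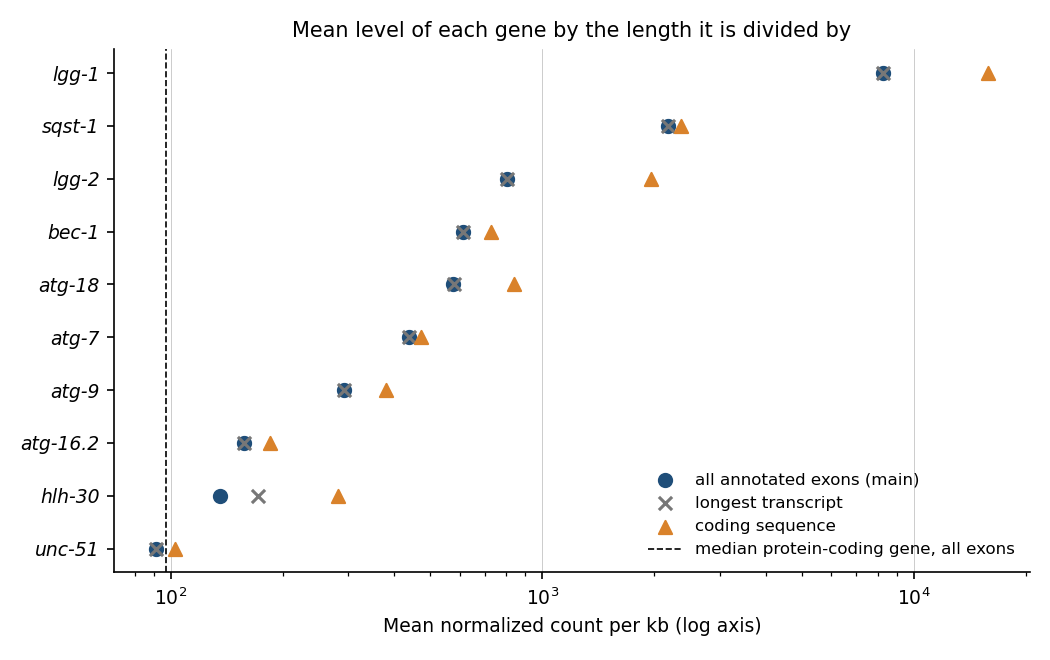
Mean normalized count per kb (log axis) of each of the 10 genes, divided by the length of all annotated exons (circles), of the longest transcript (crosses) or of the coding sequence (triangles). lgg-1 is highest and unc-51 lowest under each length, and hlh-30 moves the most between exonic length (135) and longest transcript (171); counting errors are smaller than the symbols, and the spread between libraries is not shown because only the mean was used.

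Counting error was small for each of these genes. The smallest values in the table are those of genes seen with 1 read in 1 library, and they give what 1 read adds to a level, between 0.114 and 0.311 depending on the library. The 6 libraries therefore differed by 2.74 times in scaling, and which of them are HS or CTRL was not inferred from this. A level of 264, as for unc-51, must then rest on at least 847 reads, and the level of lgg-1 on at least 18796 reads. If counted reads are independent, the relative standard error from counting alone is at most 3.43% for unc-51 and at most 0.729% for lgg-1. This error covers neither the spread between animals nor the difference between the conditions. The libraries were paired-end. Whether both mates of a pair were counted, or duplicates removed, is not given in the sources used here, and either could make the counting error larger.

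The Atg8 homologs lgg-1 and lgg-2 are the ubiquitin-like proteins that become attached to the autophagosome membrane, and they are the usual markers of autophagosomes in this animal. The lgg-1 gene (WBGene00002980; WBcel235, chromosome II, 6346960 to 6347719, minus strand) is the shortest of the 10, with 2 exons, 1 transcript and 708 bp of exon. Its level was 5849 normalized counts, above that of 97.5% of PCGs without division by length and of 98.8% per kb. The lgg-2 gene (WBGene00002981; chromosome IV, 10934196 to 10935903, minus strand) had a level of 833 normalized counts over 1039 bp of exon. Per kb, lgg-2 stood at 802, so that lgg-1 exceeded it 10.3 times. By coding length in place of exonic length the ratio was 8.11, because 59.0% of the exonic length of lgg-2 is not coding, compared with 47.9% for lgg-1.

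The p62 homolog sqst-1 encodes the receptor that binds ubiquitinated cargo and Atg8 proteins and is itself broken down with the cargo. sqst-1 (WBGene00011737; chromosome IV, 12034282 to 12036891, plus strand) had 3 exons, 2253 bp of exon and a level of 4903 normalized counts. This corresponds to 2176 per kb, the second value of the 10 genes and above 95.5% of PCGs on the per-kb scale. It was 2.71 times the value of lgg-2, and the value of hlh-30 was 0.0622 times that of sqst-1. By coding length sqst-1 exceeded lgg-2 only 1.21 times, and the value of hlh-30 was 0.119 times that of sqst-1. Both distances thus depended on the length used. Coding length is that of the longest coding sequence, 1572 bp for hlh-30, against 3268 bp of exon merged over 13 transcripts.

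unc-51 encodes the Atg1/ULK kinase that starts autophagosome formation, and in worms it is also known for its part in axon guidance. unc-51 (WBGene00006786; chromosome V, 19995986 to 20004485, minus strand) had a level of 264 normalized counts over 2897 bp of exon, or 91.1 per kb. That is percentile 49.0 of PCGs, and percentile 61.5 without division by length, so the side of the PCG median on which unc-51 lies depended on the length correction. The other listed parts of the kinase complex were higher per kb, at 449 for atg-13, a regulatory subunit, 193 for epg-7, a scaffold related to ATG11, and 129 for epg-9, the ATG101 homolog. atg-13 thus stood 4.93 times above unc-51.

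bec-1, the Beclin 1 homolog, is a subunit of the class III PI3-kinase complex, which makes the lipid PI3P on the forming membrane. bec-1 (WBGene00000247; chromosome IV, 5661141 to 5664425, minus strand) had 7 merged exons, 1335 bp of exon and a level of 816 normalized counts, or 612 per kb. Its listed partners had 446 per kb for vps-34, the lipid kinase, 388 for epg-8, the ATG14 homolog, and 352 for vps-15, a regulatory kinase. The highest and the lowest of these 4 genes differed 1.74 times, compared with 4.93 times among the 4 genes of the ULK complex.

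atg-9 encodes the membrane-spanning protein that supplies lipid to the forming autophagosome, and atg-18 encodes a WIPI protein that reads PI3P. atg-9 (WBGene00020706; chromosome V, 349385 to 359658, plus strand) and atg-18 (WBGene00018294; chromosome V, 8629174 to 8631327, minus strand) had nearly the same level, at 1048 and 1038 normalized counts. Since atg-9 has 3589 bp of exon and atg-18 has 1802 bp, their per-kb values were 292 and 576. The other listed genes of this step fell between them, with 416 per kb for atg-2, a lipid transfer protein, and 404 for epg-6, a further WIPI protein.

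atg-7 and atg-16.2 belong to the conjugation machinery. atg-7 encodes the E1-like enzyme that activates the ubiquitin-like proteins, and atg-16.2 encodes a homolog of the ATG16L1 protein, which joins ATG12-ATG5 to form the complex that places Atg8 on the membrane. atg-7 (WBGene00010882; chromosome IV, 11078682 to 11081055, minus strand) had a level of 913 normalized counts and 438 per kb. atg-16.2 (WBGene00019427; chromosome II, 6450889 to 6453391, minus strand) had a level of 296 and 158 per kb, 1.53 times the 103 per kb of its paralog atg-16.1. Reads that fit both paralogs could have been assigned to either or dropped, which was not tested. In the whole conjugation group of 11 genes the values ran from 39.8 per kb for atg-10, an E2-like enzyme, to the value of lgg-1. The E1-like atg-7 was close to the E2-like atg-3 at 414 per kb, and 11.0 times above atg-10, which had a level of only 20.9 normalized counts and a counting error of up to 12.2%. The Atg8-processing proteases atg-4.1 and atg-4.2 stood at 272 and 72.4 per kb, a ratio of 3.76.

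hlh-30 (WBGene00020930; chromosome IV, 4014793 to 4034951, minus strand) had a level of 442 normalized counts, higher than 70.0% of PCGs without division by length, and 135 per kb, higher than 55.2% of PCGs. It has the longest span of the 10 genes at 20159 bp, of which 16891 bp lie outside all of its exons, and 13 annotated transcripts against 1 or 2 for each of the other genes. Merging the exons of all 13 transcripts gives 3268 bp, more than its longest transcript of 2583 bp, and with the longest transcript the value rose to 171 per kb. Its rank among the 10 genes then passed from 9 to 8, above atg-16.2. mxl-3, a MAX-like factor known in worms for competing with HLH-30 at shared promoters, had 904 per kb, or 6.68 times the value of hlh-30. xpo-1, the exportin that carries HLH-30 out of the nucleus, had 1219 per kb. let-363, the TOR kinase, and daf-15, its partner Raptor, had 742 and 611 per kb. hlh-30 was thus the lowest of the 5 regulators listed.

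**Figure D2:**
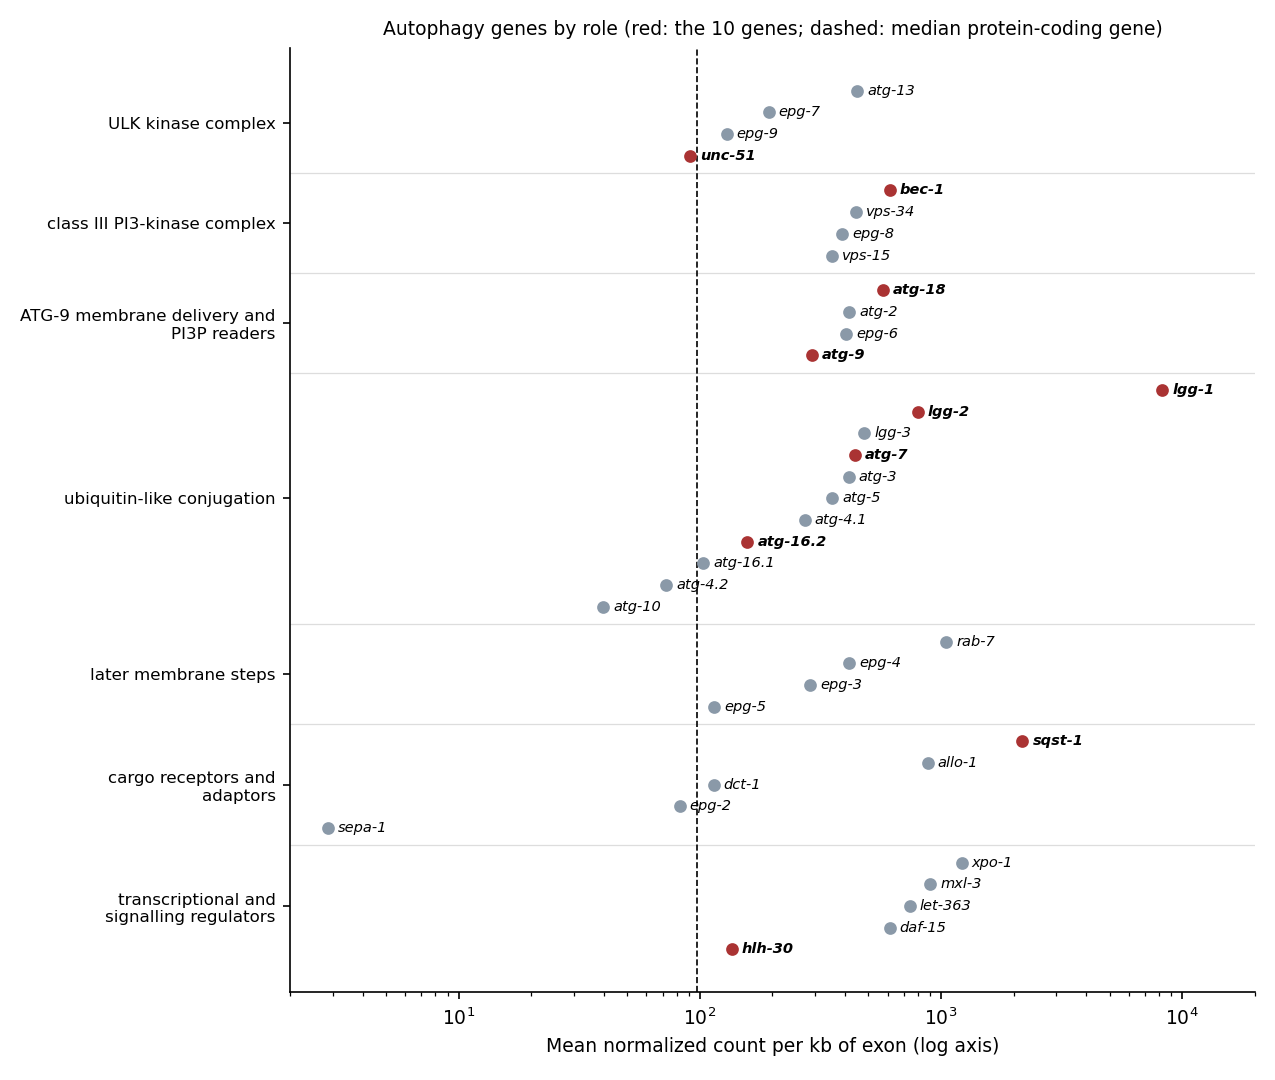
Mean normalized count per kb of exon (log axis) of 37 autophagy genes grouped by role, each point 1 gene, with the 10 genes in red and the PCG median (97.3) as a dashed line. lgg-1 and sqst-1 stand to the right of all other genes, and unc-51 and hlh-30 are the lowest points of their roles.

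The order of the 10 genes by per-kb level was lgg-1, sqst-1, lgg-2, bec-1, atg-18, atg-7, atg-9, atg-16.2, hlh-30 and unc-51. The largest steps lay at the top, where lgg-1 exceeded sqst-1 3.80 times and sqst-1 exceeded lgg-2. The first of these steps was 6.72 times by coding length and 1.19 times without division by length. Further down the closest neighbours were bec-1 and atg-18, which differed 1.06 times, and atg-16.2 and hlh-30, which differed 1.16 times. Both pairs changed places when coding length was used, with 726 per coding kb for bec-1 and 839 for atg-18, and 185 for atg-16.2 and 281 for hlh-30. Whether any neighbours in this order differ beyond the spread between libraries was not tested. Without division by length, atg-9 took rank 3, and lgg-2 and bec-1 passed to ranks 6 and 7.

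**Figure D3:**
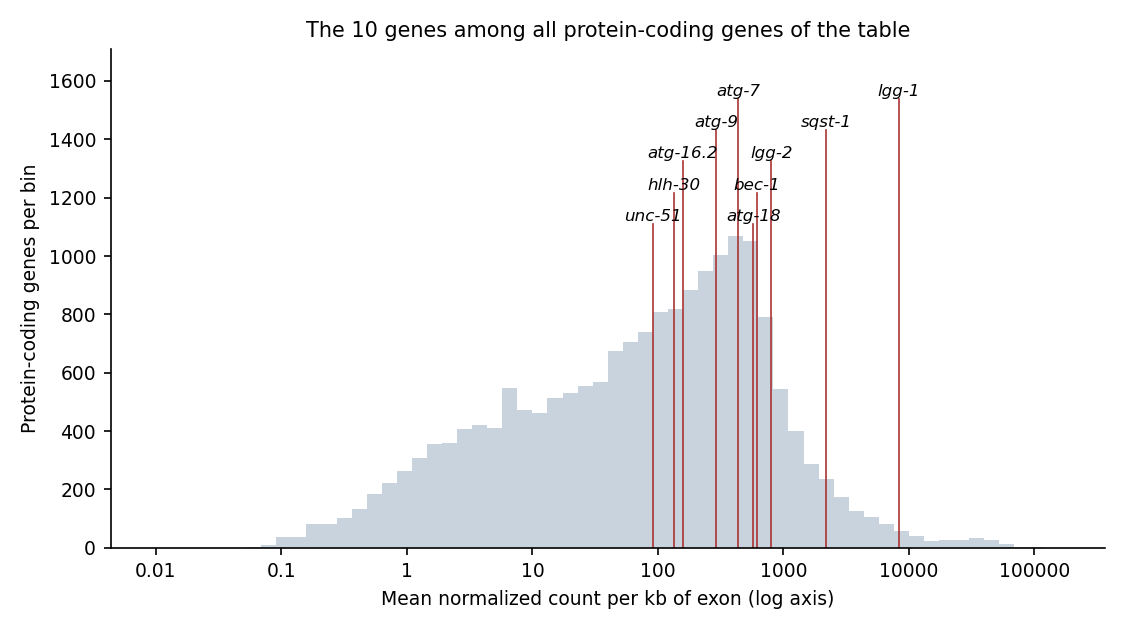
Histogram of the mean normalized count per kb of exon (log axis) over the 18768 PCGs of the table (grey, genes per bin), with a red line at the value of each of the 10 genes. The lines run from 91.1 for unc-51, beside the PCG median of 97.3, to 8262 for lgg-1, and the lines of lgg-1 and sqst-1 lie in the thin upper end of the histogram.

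The list of 37 autophagy genes, grouped by textbook role, was expressed almost throughout. Its median was 404 per kb, and 388 per kb for the 27 genes other than the 10. Of the 37 genes, 32 (86.5%) were above the PCG median and 4 were higher than 90% of PCGs, that is above 965 per kb. These were lgg-1, sqst-1, xpo-1 and rab-7, the small GTPase of late endosomes, which had 1051 per kb. A level of at least 100 normalized counts, not divided by length, was reached by 35 of the 37 genes (94.6%), against 52.6% of the PCGs of the table. The exceptions were atg-10 and sepa-1, an adaptor known for the removal of P granule proteins in embryos, which had a level of 6.38 normalized counts and 2.87 per kb. Among the other cargo adaptors, allo-1 had 880 per kb, dct-1, the BNIP3 homolog of mitophagy, had 114, and epg-2 had 82.4, so that sqst-1 was 26.4 times above epg-2. In the later membrane steps, epg-4 had 415 per kb, epg-3 had 287 and epg-5 had 115. lgg-3, the ATG12 homolog, and atg-5, to which it is joined, had 481 and 354 per kb.

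Gene families of other degradation steps had higher medians per kb in the same table. The 20 V-ATPase (vha-) genes, whose proton pump acidifies the lysosome, had a median of 3214 per kb and a range from 512 to 5740. The 14 genes of the proteasome core (pas- and pbs-) had a median of 2449 per kb and lay within a range of 1.93 times, from 1925 to 3724. The 26 cathepsin-type protease (cpl-1, cpr- and asp-) genes had a median of 1977 per kb and a wider range, from 0.877 to 30907. lgg-1 exceeded every V-ATPase and proteasome core gene on this scale, sqst-1 lay within the ranges of both groups, and the remaining 8 genes were below the lowest proteasome core gene. These are descriptions of 1 mean per gene, with no test.

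The positions of the genes were set beside their levels, because reads of overlapping or upstream genes can be counted on a gene. The 10 genes lie on chromosomes IV (5 genes), V (3 genes) and II (2 genes), which hold 16.8%, 23.8% and 17.2% of PCGs. This spread is that of the names picked. Other listed autophagy genes lie on chromosomes I, III and X, for example vps-34, atg-13 and atg-2. No exon of the 10 genes overlaps an exon of another annotated gene on either strand. Within the introns of bec-1 lies 1 ncRNA gene and within those of hlh-30 lie 2, with levels of 2.38, 1.84 and 1.84 normalized counts, each under 1% of the level of its host without division by length. The closest upstream PCG on the same strand ends 30 bp before atg-7. This gene, let-70, which encodes an E2 ubiquitin-conjugating enzyme and was picked out with its values in view, had a level of 3238 normalized counts, 355% of that of atg-7 without division by length. For atg-18 the gap was 483 bp, and the upstream gene had a level of 7.15 normalized counts. The other 8 genes had gaps from 1487 bp for lgg-1 to 36463 bp for unc-51. Whether reads from upstream transcripts contribute to the level of atg-7, or of any other of the 10 genes, was not tested. Genes on the opposite strand that do not overlap were not examined.

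**Figure D4:**
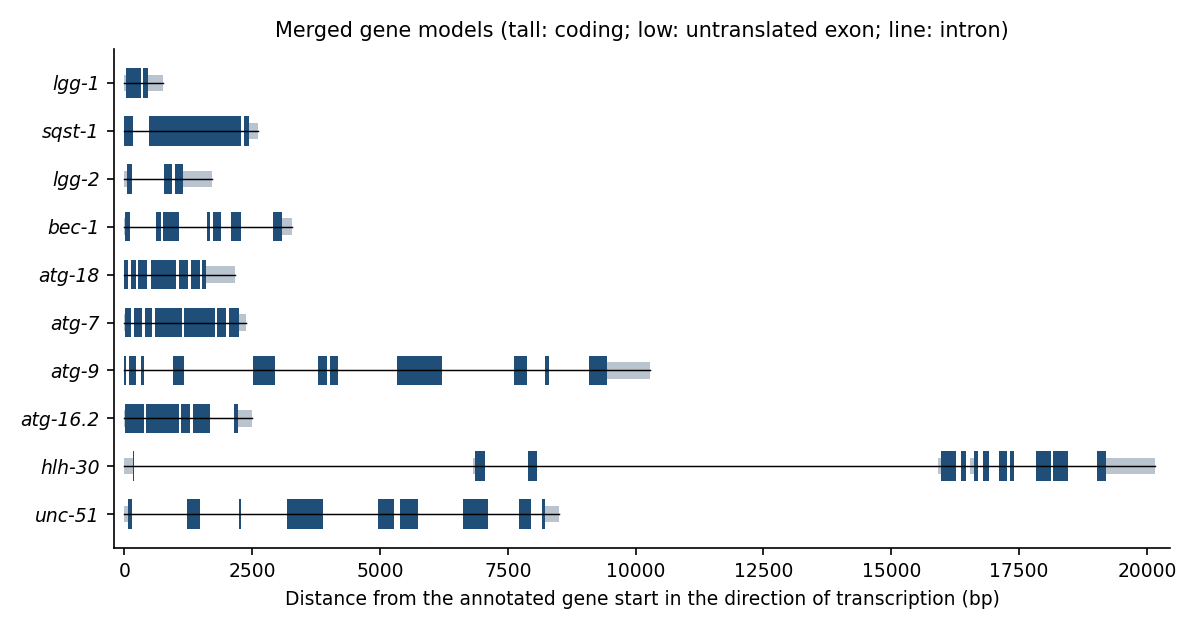
Merged gene models of the 10 genes, drawn to scale from the annotated gene start in the direction of transcription (bp), with coding sequence tall, untranslated exon low and introns as a line. lgg-1 spans 760 bp and hlh-30 spans 20159 bp, most of it intron.

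Reads were found for all 9 tissue markers. Levels, not divided by length, were 97339 and 18629 normalized counts for unc-54 and myo-3 of body wall muscle, 7241 and 6929 for glh-1 and pgl-1 of the germ line, 815 and 289 for ges-1 and elt-2 of the intestine, 812 and 68.5 for snb-1 and rgef-1 of neurons, and 201 for dpy-7 of the epidermis. Of these, rgef-1 alone lay below the PCG median, at percentile 42.5. Summed over all genes, 46.9% of the normalized counts fell on rRNA genes although rRNA had been depleted, and 47.5% on PCGs. The 10 genes together held 0.105% of the normalized counts of PCGs.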

How the data were processed

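RNA of whole L4 animals was sequenced in stranded libraries after rRNA depletion, with 3 CTRL and 3 HS libraries. The authors trimmed reads with fastq-mcf, aligned them with STAR to build WS235, counted them with FeatureCounts on Ensembl 88 genes, and divided the counts by DESeq2 size factors. The signal deposited by the authors for each gene is the mean of these normalized counts over the 6 libraries (baseMean). Whether strand was used in counting is not given in the sources used here. The other 5 columns hold the authors' comparison of HS with CTRL (log2 fold change, its standard error, Wald statistic, p-value and adjusted p-value). They were not used. The planned test of HS against CTRL needs counts of single libraries. It was not run, because these columns and the mean over the 6 libraries give no such counts.

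The 10 genes and the gene lists were chosen with earlier results of these data known. The genes named are these 10, the 37 listed autophagy genes, families counted as a whole, tissue markers, and let-70. ATG11 is listed as epg-7. Identifiers were matched to symbols and, for 30963 of 31180 genes, to the Ensembl 115 annotation of WBcel235, whose gene models can differ from those used for counting. Levels were divided by the merged exonic length. Percentiles are the share of PCGs of the table with a lower value. Every gene of the table had a level above 0, so PCGs without any read are not part of this reference. Bounds on reads follow from what 1 read in 1 library adds to the mean, a step that was tested on simulated data. Python 3.11.15, pandas 2.3.3, numpy 2.4.6 and matplotlib 3.10.9 were used.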

Additional observations from a re-analysis of the deposited data

How the results depend on the processing

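The median level of the 10 genes was 507 per kb by exonic length, 598 by coding length and 509 by longest transcript, and it was 873 normalized counts without division by length. Of the 10 genes, 6 kept their rank by coding length, 8 by longest transcript and 3 without division by length. lgg-1, sqst-1 and unc-51 held ranks 1, 2 and 10 under all 4 choices. The median percentile of the level among PCGs was 81.5. It was 88.4 among all genes, 75.7 among PCGs with a level of at least 10, and 79.5 by level per kb. For the list of 37 genes, the median passed from 404 per kb to 816 normalized counts without division by length, and to 388 per kb without the 10 genes. Coding length as annotated and longest transcript were chosen after seeing the data. No paired analysis was possible because only the mean over the 6 libraries was used, and for the same reason no replicate could be left out and neither another normalization nor a filter on counts could be tried for HS against CTRL. Promoter motifs and coding length from RefSeq proteins were not run. Depth limits atg-10 and sepa-1, whose counting errors reach 12.2% and 22.1%.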
